A study of Danio rerio with 40 samples.

Results

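The genes slc34a2a and slc20a1b encode sodium-coupled phosphate carriers of the zebrafish. They were chosen by name, with earlier results of these data known. They are the rows of the deposited gene table with these symbols, 2 of its 14267 genes. Their messenger RNA was measured by sequencing the poly-A RNA of entire animals in 40 libraries, which form 8 groups of 5. The tested animals were kept in 300 pM 1α,25(OH)2D3 (calcitriol, the active hormone made out of vitamin D) and frozen on day 2, 4, 6 or 7 post fertilization (dpf). The animals they are set against received ethanol vehicle alone and were collected at the same ages. All were of the Segrest wild type, grew in medium with 0.003% phenylthiourea, and were exposed from 24 h of age, with a change of medium every 24 h. Sets of 25 to 30 animals were pooled for each RNA preparation. The labels also describe exposure of 6 dpf larvae for 24 h in another experiment and do not mark which libraries, if any, belong to it. Exposure at 6 and 7 dpf may therefore have been shorter than the main protocol gives. Separate clutches are not stated for replicates, and p-values thus reflect the spread among the sequenced libraries alone, which may be technical.

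Carriers of the SLC34 family sit in the apical membrane of absorbing epithelia, above all in gut and kidney, where they take up phosphate against its gradient with the help of sodium. Carriers of the SLC20 family, of which slc20a1b encodes a PiT-1 type, are found in most cell types and supply cells with phosphate for their own use. In mammals, calcitriol is known to raise phosphate uptake in the gut, and fibroblast growth factor 23 and parathyroid hormone lower its recovery in the kidney. Zebrafish carry a pair of copies of several of these genes, among them slc34a2a and slc34a2b, and slc20a1a and slc20a1b.

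Libraries held between 67235165 and 214502251 counts. Every group has 1 library of low depth, with 81298182 counts or fewer, while the other 4 hold 106850887 or more. This is replicate 5 of each calcitriol group and replicate 1 of each vehicle group, and is called the shallow library. Counts ranged from 7 to 8829 per library for slc34a2a and from 13947 to 90943 for slc20a1b. Levels are given in CPM (counts relative to library size, scaled by TMM factors over the 40 libraries) as mean ± SD with n = 5. Differences are log2 fold changes of calcitriol over vehicle, or of the later over the earlier age, ± SE. Adjusted p-values come from edgeR's quasi-likelihood test with Benjamini-Hochberg adjustment over all genes tested, and 0.05 is the threshold. As a check of the treatment, cyp24a1, whose product inactivates calcitriol, lay higher in all 5 calcitriol libraries than in all 5 vehicle libraries at each age. Its log2 fold changes were 2.76 at 2 dpf, 2.85 at 4 dpf, 2.99 at 6 dpf and 2.53 at 7 dpf. The adjusted p were 0.0281, 0.0981, 0.000159 and 3.79e-06, so cyp24a1 did not pass at 4 dpf. There it passed under 7 of 22 alternatives, among them the fit without the shallow libraries (2.9, adjusted p = 0.000237). A gene that did not pass at 4 dpf may thus still respond at that age. With 1 library left out at a time, the call at 2 dpf was lost in 9 of 10 cases, the exception being calcitriol replicate 5.

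The epithelial carrier slc34a2a (chromosome 1) was barely detected at 2 dpf and clearly detected at later ages. Larvae kept in calcitriol had less of it at 6 and 7 dpf. Its mean level at 6 dpf was 17.1 ± 1.43 CPM in calcitriol larvae and 44.4 ± 4.19 CPM in vehicle larvae, 2.58-fold lower by the edgeR fit. At 7 dpf it was 15.2 ± 0.507 CPM in calcitriol larvae and 35.5 ± 2.22 CPM in vehicle larvae, 2.32-fold lower by the fit. The general carrier slc20a1b (chromosome 10) was present at every age and moved the other way at 7 dpf. It had 443.6 ± 56.2 CPM in calcitriol larvae and 313.1 ± 24.7 CPM in vehicle larvae, 1.42-fold higher by the fit. In RNA of whole larvae, fewer cells of a type and less RNA per cell cannot be told apart.

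**Figure D1:**
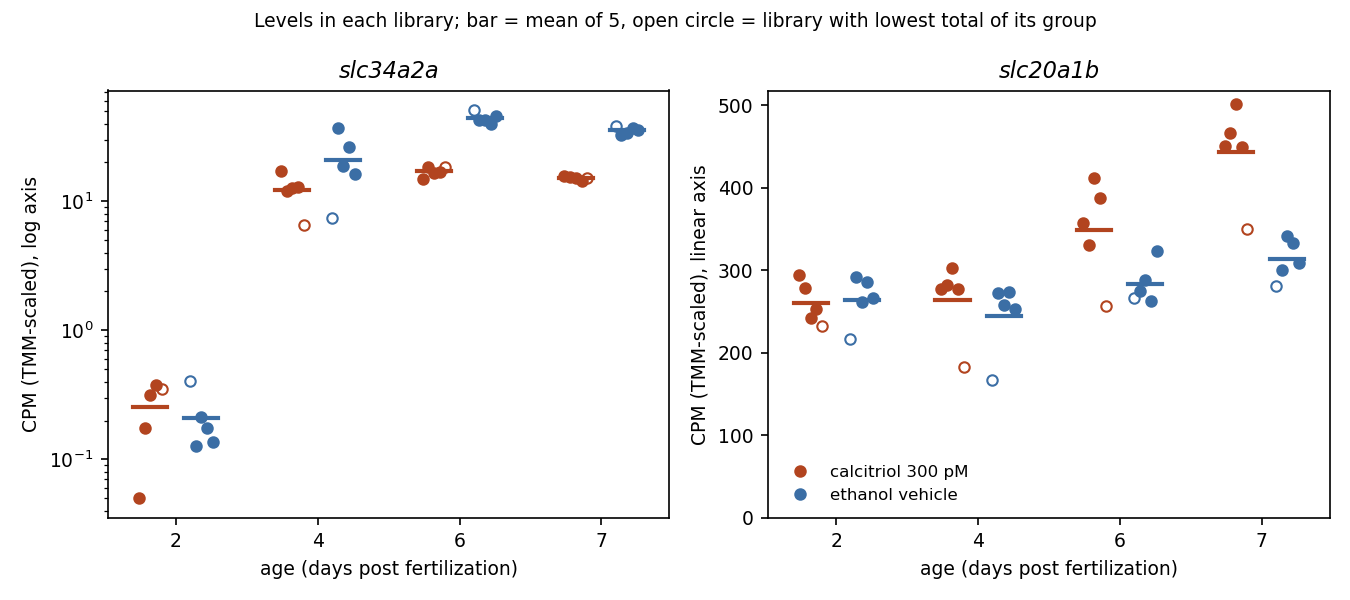
Levels of slc34a2a (left, log axis) and slc20a1b (right, linear axis) in CPM against age in dpf, calcitriol libraries in red to the left of vehicle libraries in blue; points are libraries, bars the means of 5, and open circles the shallow libraries. At 6 and 7 dpf all calcitriol points of slc34a2a lie between 14.4 and 18.5 CPM and all vehicle points between 32.9 and 51.1 CPM.

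At 2 dpf, replicates 1 to 5 of the calcitriol embryos had 0.0498, 0.176, 0.313, 0.380 and 0.352 CPM of slc34a2a. The vehicle embryos had 0.403, 0.126, 0.212, 0.176 and 0.137 CPM. These levels rest on 7 to 56 counts per library in calcitriol embryos and 19 to 33 in vehicle embryos, and the groups overlapped. At 0.30 ± 0.49, the log2 fold change did not pass (adjusted p = 1.00). Of the 13203 genes tested at this age 0.00757% were called.

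At 4 dpf the same carrier had 17.1, 12.0, 12.6, 13.0 and 6.60 CPM in calcitriol larvae, replicates 1 to 5. Vehicle larvae had 7.44, 36.8, 18.8, 26.1 and 16.2 CPM. The shallow library was the lowest of its group in both, and vehicle larvae spread over a wider range than calcitriol larvae. The log2 fold change of -0.77 ± 0.36 had an unadjusted p of 0.0515 and an adjusted p of 0.727. It was -0.47 without vehicle replicate 2 and -0.98 without vehicle replicate 1, the ends of the range on leaving out 1 library, and did not pass in any of these 10 fits. At this age 0% of 13410 genes were called by edgeR, 924 had an unadjusted p under 0.05, and DESeq2 and limma voom called 103 and 29. By their numbers in the exon table, calcitriol and vehicle libraries deviated together at this age (r of 0.36 to 0.64), though the labels state no pairing. With these numbers as a block, 1255 genes passed and slc34a2a was among them, with a log2 fold change of -0.67 (adjusted p = 0.0315).

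At 6 dpf, slc34a2a stood at 15.0, 18.5, 16.6, 16.9 and 18.3 CPM in calcitriol larvae. In vehicle larvae it stood at 51.1, 42.8, 42.6, 40.1 and 45.5 CPM. The highest calcitriol library was well below the lowest vehicle library. The log2 fold change was -1.37 ± 0.09 (adjusted p = 1.55e-05), and its p ranked 3 among the 13505 genes tested. Of those genes 10.7% were called in either direction and 6.32% as lower, and 6.58% had all 5 calcitriol libraries below all 5 vehicle libraries.

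At 7 dpf the levels of slc34a2a were 15.8, 15.5, 15.2, 14.4 and 15.2 CPM in calcitriol larvae. Vehicle larvae had 38.5, 32.9, 33.9, 36.7 and 35.4 CPM. The groups again did not overlap, and the coefficient of variation was 3.33% in calcitriol larvae and 6.27% in vehicle larvae. Calcitriol over vehicle gave a log2 fold change of -1.21 ± 0.07 (adjusted p = 6.18e-07), rank 22 by p among 13434 genes. At this age 28.8% of genes were called, 14.2% as lower, and 9.98% had all calcitriol libraries below all vehicle libraries.

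For slc20a1b, calcitriol embryos at 2 dpf had 294.8, 278.2, 241.6, 252.8 and 232.3 CPM. Vehicle embryos had 216.7, 291.3, 262.1, 285.3 and 266.5 CPM. The groups overlapped almost fully, with a log2 fold change of -0.03 ± 0.10 (adjusted p = 1.00), whose sign was positive without scaling factors (0.00531).

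At 4 dpf slc20a1b had 277.7, 281.9, 302.8, 276.8 and 183.0 CPM in calcitriol larvae. It had 167.5, 272.9, 257.8, 274.2 and 252.7 CPM in vehicle larvae. The shallow library stood well below the other 4 in both groups, and the rest lay close together. Its log2 fold change of 0.12 ± 0.15 did not pass (adjusted p = 0.957).

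At 6 dpf the values of slc20a1b were 357.1, 330.8, 412.3, 387.2 and 256.4 CPM in calcitriol larvae. They were 265.9, 274.4, 288.5, 262.9 and 323.9 CPM in vehicle larvae. The first 4 calcitriol libraries lay above all vehicle libraries, and the shallow one below all of them. The log2 fold change of 0.32 ± 0.12 did not pass (adjusted p = 0.115). Without calcitriol replicate 5 it was 0.39 (adjusted p = 0.0106), and without the shallow libraries of both groups 0.38 (adjusted p = 0.00905). The fit without calcitriol replicate 5 was the 1 of 10 fits with a library left out that passed, and the adjusted p reached 0.258 in others. Over all alternatives 5 of 22 passed.

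At 7 dpf slc20a1b reached 450.3, 466.6, 501.2, 449.8 and 350.2 CPM in calcitriol larvae. Vehicle larvae had 280.7, 300.9, 341.6, 333.5 and 308.8 CPM. All calcitriol libraries lay above all vehicle libraries, the shallow one by the smallest margin. The log2 fold change was 0.51 ± 0.10 (adjusted p = 0.00316). Of all genes at this age 14.6% were called as higher, and 8.14% had all calcitriol libraries above all vehicle libraries.

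**Figure D2:**
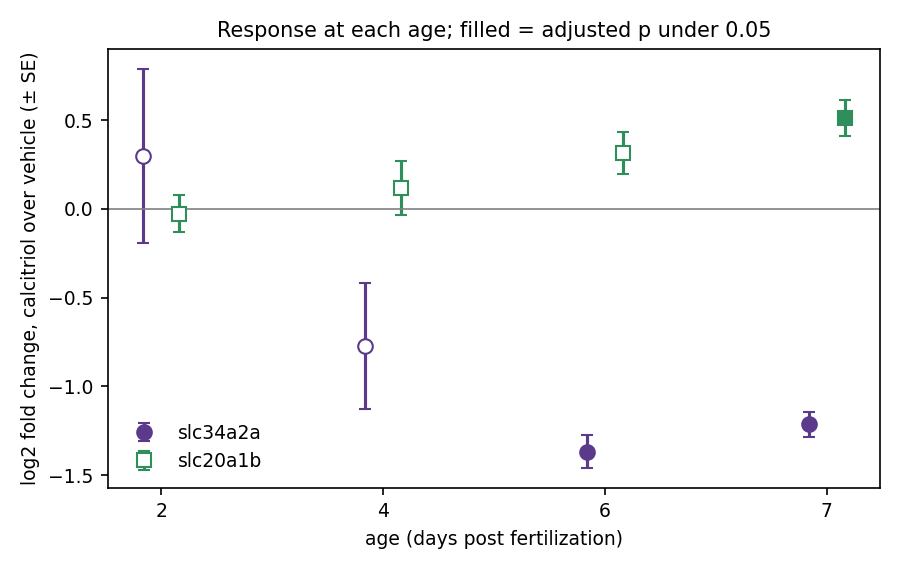
Log2 fold change of calcitriol over vehicle (vertical axis, ± SE) against age in dpf for slc34a2a (circles) and slc20a1b (squares), with filled symbols where the adjusted p was under 0.05. For slc34a2a the values run 0.30, -0.77, -1.37 and -1.21 with age, and for slc20a1b -0.03, 0.12, 0.32 and 0.51.

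Whether the response itself changed with age was tested in 1 fit of all 40 libraries, which called 7.79% of 13650 genes. Neither carrier passed in the test over all ages, with an adjusted p of 0.0643 for slc34a2a and 0.217 for slc20a1b. Without the shallow libraries both passed, with adjusted p of 0.00706 for slc34a2a and 0.000371 for slc20a1b. Of 11 alternatives, 2 passed for slc34a2a and 4 for slc20a1b, and the adjusted p reached 0.954 and 0.75 in others. Between pairs of ages, the response of slc34a2a at 6 dpf minus that at 2 dpf was -1.72 ± 0.47 on the log2 scale (adjusted p = 0.0417), where 2.43% of genes were called. Its response at 7 dpf minus that at 2 dpf was -1.56 ± 0.47 (adjusted p = 0.0255), where 12.1% were called. Both differences rest on the few counts at 2 dpf. For slc20a1b the response at 7 dpf minus that at 2 dpf was 0.53 ± 0.18 (adjusted p = 0.0502).

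The ratio of the carriers was also taken within each library, which removes the total count but not every difference between libraries. At 6 dpf there were 5.06 ± 1.32 slc34a2a counts per 100 slc20a1b counts in calcitriol larvae and 15.8 ± 2.01 in vehicle larvae. At 7 dpf there were 3.48 ± 0.505 in calcitriol larvae and 11.4 ± 1.41 in vehicle larvae. Groups did not overlap at either age. The shallow library had the highest ratio of its group at both ages, with 7.14 in calcitriol and 19.2 in vehicle larvae at 6 dpf, and 4.33 in calcitriol and 13.7 in vehicle larvae at 7 dpf. At 4 dpf the ratios were 4.58 ± 0.967 in calcitriol larvae and 8.23 ± 3.45 in vehicle larvae, and they overlapped. These are ratios of counts, not corrected for transcript length.

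With age, slc34a2a was higher at 4 dpf than at 2 dpf in calcitriol animals, by 5.63 ± 0.41 on the log2 scale or 49.4-fold (adjusted p = 2.04e-07). In vehicle animals the difference was 6.73 ± 0.48 or 106-fold (adjusted p = 1.63e-07). On named exons, where 2 dpf libraries had 0 or 1 counts, the fitted values were 7.73 in calcitriol and 8.49 in vehicle animals, and with limma voom 6.56 and 6.90, so the size of this step is uncertain. Of all genes, 60.7% were called in calcitriol animals and 62.2% in vehicle animals over this interval, and 24.8% and 25.7% had all libraries at 4 dpf above all at 2 dpf, as slc34a2a did. At 6 dpf against 4 dpf slc34a2a did not pass in calcitriol larvae, at 0.47 ± 0.19 (adjusted p = 0.0698, 37.3% of genes called), but did without calcitriol 4 dpf replicate 1, at 0.63 (adjusted p = 0.0166). It rose in vehicle larvae by 1.07 ± 0.31 (adjusted p = 0.0178, 35.9% called). At 7 dpf against 6 dpf it was -0.14 ± 0.08 in calcitriol larvae (adjusted p = 0.331, 7.74% called). In vehicle larvae it fell by 0.29 on the log2 scale, with an SE of 0.08 (adjusted p = 0.0324, 12% called). That last call was lost without vehicle 6 dpf replicate 3 or 5 or without vehicle 7 dpf replicate 2, 3, 4 or 5, with adjusted p of 0.0568 to 0.0918, and in the fit of all 40 libraries (adjusted p = 0.562). All 5 vehicle libraries at 7 dpf lay below all 5 at 6 dpf, which held for 5.91% of genes.

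For slc20a1b no step between neighbouring ages passed. The value nearest the threshold was 0.40 ± 0.15 at 6 dpf against 4 dpf in calcitriol larvae (adjusted p = 0.0501). Among the alternatives, the replicate number was also used as a block. Only after these fits had been seen were libraries of the same number found to deviate together across ages within a treatment. With this block, slc20a1b passed at 6 dpf against 4 dpf in calcitriol larvae, at 0.40 (adjusted p = 0.00173). In the same larvae it passed at 7 dpf against 6 dpf, at 0.39 (adjusted p = 0.00391). It also passed at 7 dpf against 6 dpf in vehicle larvae, at 0.18 (adjusted p = 0.0413).

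Over all 8 groups the means of slc34a2a spanned 211-fold and those of slc20a1b 1.81-fold. In rising order slc34a2a stood at 2 dpf in vehicle and calcitriol embryos, then in calcitriol larvae at 4, 7 and 6 dpf, then in vehicle larvae at 4, 7 and 6 dpf. Neighbours in this order overlapped in their libraries except at 2 steps, between calcitriol embryos at 2 dpf and calcitriol larvae at 4 dpf, and between vehicle larvae at 7 and 6 dpf. For slc20a1b the lowest mean was 245.0 CPM in vehicle larvae at 4 dpf and the highest that of calcitriol larvae at 7 dpf, and all neighbours in the order overlapped. The shallow library was the lowest of its group in 7 of 8 groups for slc20a1b and in 2 of 8 for slc34a2a. CPM is scaled to library size, so for some genes the shallow libraries differed in more than total count. At 4 dpf the shallow calcitriol library had 71.7 CPM of cyp24a1, and the others of its group 206.4 to 340.9 CPM. What else sets these libraries apart was not tested.

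The exon table gives a second view of a part of the same reads. It names 2 exons of slc34a2a, at chromosome 1 positions 13320114 to 13320243 and 13320984 to 13321096 of Zv9, the zebrafish build named in the table's scaffold names. In vehicle replicate 2 at 6 dpf these exons had 150 and 144 counts, against 6288 on the gene row. At 2 dpf the first had at most 1 count per library and the second 0 in all 10, where a count of 0 allows up to 3. At 6 dpf the calcitriol over vehicle ratio of mean levels was 0.378 for the first exon, whose groups did not overlap, and 0.539 for the second, whose groups did. At 7 dpf the ratios were 0.392 and 0.455, and neither exon's groups overlapped. The shallow calcitriol library of that age had 5 and 0 counts on these exons, against 1138 on the gene row, and lowered both calcitriol means. At 4 dpf they were 0.598 and 0.625, with overlap.

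For slc20a1b the table names 4 exons on chromosome 10, at 17746359 to 17746446, 17747093 to 17747190, 17754854 to 17755085 and 17756265 to 17756350. At 7 dpf the calcitriol over vehicle ratios were 1.78, 1.70, 1.60 and 1.67 in that order, and the groups of the last exon did not overlap. The first 3 exons overlapped through the shallow calcitriol library alone, with scaled levels of 140.7, 125.3 and 32.4. The next lowest calcitriol library had 299.4, 277.1 and 103.6, and the highest vehicle library 178.0, 187.8 and 95.2. At 6 dpf the ratios were 1.46, 1.27, 1.26 and 1.36, with overlap in each. As counts per kilobase of exon, scaled to the named-exon total, vehicle larvae at 6 dpf had 55.6 on the first slc34a2a exon (range 49.9 to 60.3) and 59.2 on the second (31.3 to 80.2). On the slc20a1b exons the same larvae had 152.9 ± 20.2, 163.8 ± 36.5, 59.6 ± 22.3 and 582.2 ± 90.3. The third slc20a1b exon was near the slc34a2a exons and the other 3 were higher.

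**Figure D3:**
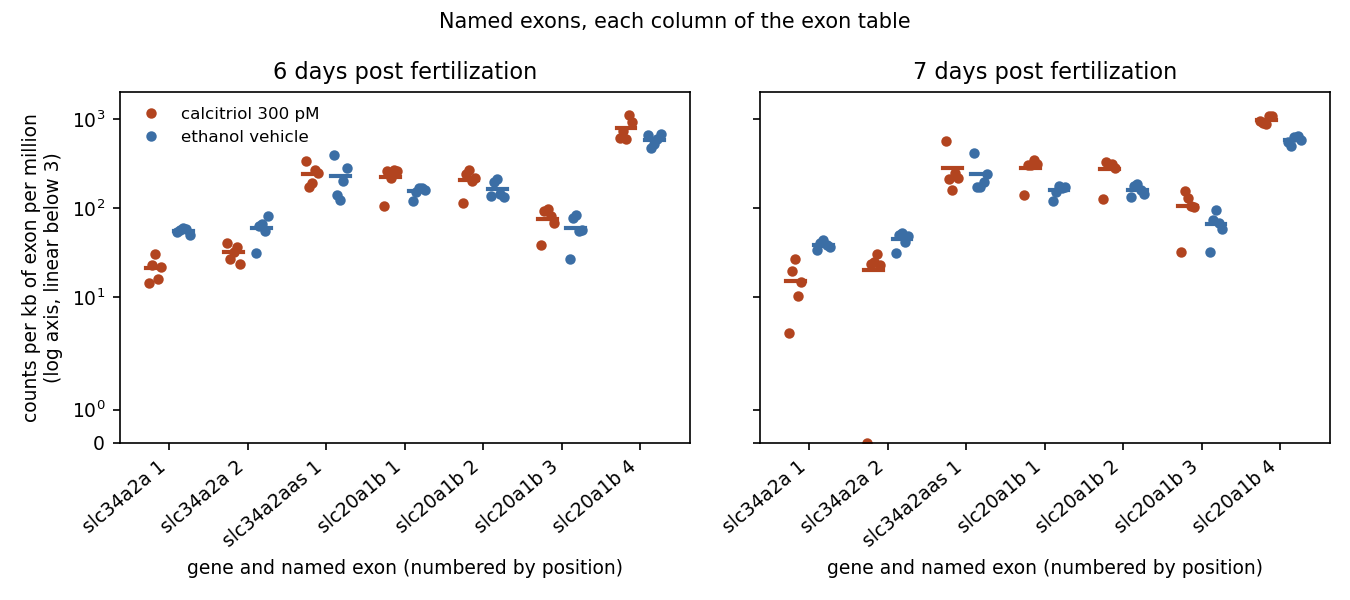
Level of each named exon (counts per kilobase of exon, scaled to the named-exon total, log axis that is linear below 3) at 6 dpf (left) and 7 dpf (right), calcitriol in red to the left of vehicle in blue; points are columns of the exon table and bars their means. The slc34a2a exons are lower in calcitriol larvae, at ratios of 0.378 and 0.539 at 6 dpf, and the antisense exon has a ratio of 1.06.

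An antisense gene, slc34a2aas, overlaps slc34a2a in the RefSeq annotation of GRCz12tu, and the library kit does not mark strand, so reads of an overlap cannot be assigned to either gene by strand. Its gene row had 12.5 ± 1.92 CPM in calcitriol larvae and 22.1 ± 5.42 CPM in vehicle larvae at 6 dpf, a log2 fold change of -0.81 ± 0.17 (adjusted p = 0.00985). At 7 dpf it had 13.3 ± 4.87 CPM in calcitriol larvae and 20.0 ± 3.79 CPM in vehicle larvae, at -0.58 ± 0.21 (adjusted p = 0.0594), or at -0.83 without calcitriol replicate 5 (adjusted p = 0.000616). Its 1 named exon, at 13316798 to 13317015, did not follow: the calcitriol over vehicle ratio was 0.959 at 2 dpf, 1.05 at 4 dpf, 1.06 at 6 dpf and 1.18 at 7 dpf, with overlap at each age. In a test on the named exons alone the antisense gene had a log2 fold change of -0.04 at 6 dpf (adjusted p = 0.966).

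The part of the antisense row outside its named exon was compared with slc34a2a in each library. At 4 to 7 dpf it amounted to 31.7% to 41.0% of the slc34a2a count in every library. At 2 dpf the proportion was different, 108.9% to 285.7% in calcitriol and 137.5% to 196.3% in vehicle embryos. At 2 dpf the named exon held 90.2% to 98.0% of the row. At 6 dpf the median share was 51.3% in calcitriol larvae and 31.6% in vehicle larvae. At 2 dpf the antisense row had 442 to 1808 counts per library, against 7 to 56 for slc34a2a, so few reads of this locus were then counted for the carrier. How many reads of the antisense row come from carrier transcripts was not tested.

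**Figure D4:**
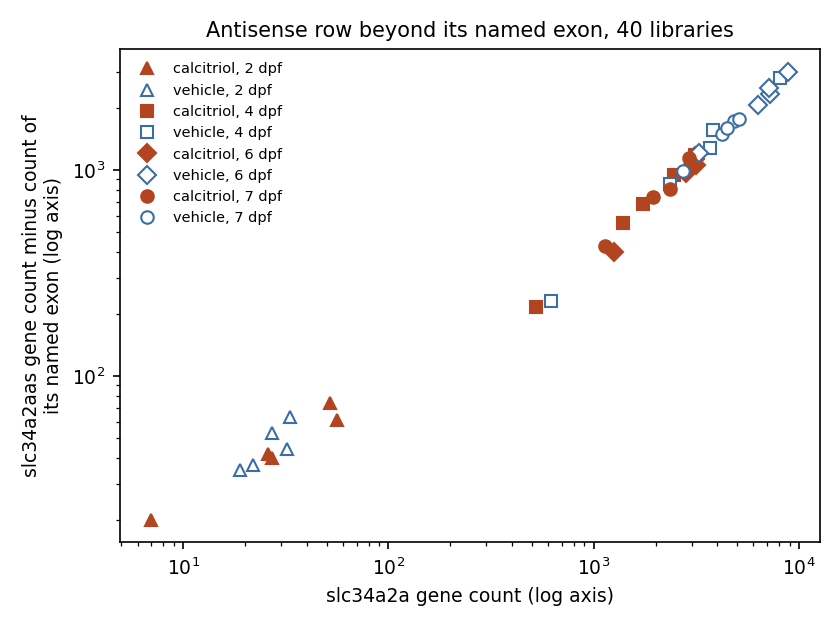
Count of the slc34a2aas row minus that of its named exon (vertical) against the count of slc34a2a (horizontal), both on log axes, in 40 libraries; filled symbols are calcitriol and open symbols vehicle, with a shape for each age. From 4 dpf on, the points lie at 31.7% to 41.0% of the slc34a2a count in both treatments.

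The tissues that express SLC34 carriers were followed by lists of marker genes. Of 28 intestine markers 18 were measured, and at 7 dpf 15 fell and 0 rose, where 14.2% of all genes were called as lower, with a median log2 fold change of -0.95 against 0.01 over all genes. At 6 dpf 15 fell and 1 rose (median -0.79), where 6.32% of all genes were called as lower. Examples at 7 dpf are fabp2, an intestinal fatty acid binding protein, at -2.23 ± 0.19 (adjusted p = 1.15e-05), the brush-border protease gene mep1b at -1.56 ± 0.14 (1.89e-05) and tm4sf5 at -1.21 ± 0.08 (1.93e-06). The summed level of the 18 markers at 6 dpf was 946.7 to 1317 CPM in calcitriol larvae and 1742 to 1989 CPM in vehicle larvae. At 7 dpf it was 843.3 to 984.4 CPM in calcitriol larvae and 1636 to 2283 CPM in vehicle larvae, and no marker was at 0 in all libraries of any group.

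Set against this sum within each library, slc34a2a at 6 dpf came to 1.39 to 1.81 per 100 CPM of intestine markers in calcitriol larvae and 2.20 to 2.59 in vehicle larvae, without overlap. At 7 dpf it came to 1.47 to 1.80 in calcitriol larvae and 1.69 to 2.17 in vehicle larvae, with overlap. The medians were 1.74 in calcitriol and 2.38 in vehicle larvae at 6 dpf, and 1.70 in calcitriol and 1.93 in vehicle larvae at 7 dpf. The part of the intestine markers in the lower slc34a2a level was not tested.

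Of 21 pronephros markers (the larval kidney) 17 were measured. At 7 dpf 6 fell, 0 rose and 11 did not pass, where 14.2% of all genes were called as lower. The log2 fold changes ran from -0.92 to 0.20 (median -0.05 against 0.01 over all genes). At 6 dpf 3 fell and 0 rose, where 6.32% were (median -0.13 against 0.02). The glucose carrier gene slc5a2 was at -0.92 ± 0.16 (adjusted p = 0.00128) at 7 dpf, slc13a3, a dicarboxylate carrier gene, at -0.61 ± 0.14 (0.00711), and cdh17, a cadherin gene, at -0.56 ± 0.14 (0.01). The summed pronephros level at 7 dpf was 513.1 to 663.1 CPM in calcitriol larvae and 646.6 to 717.2 CPM in vehicle larvae. Per 100 CPM of these markers slc34a2a came to 2.18 to 2.95 in calcitriol larvae and 4.62 to 5.96 in vehicle larvae, without overlap. The part of these markers in the lower slc34a2a level was not tested.

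Of the 39 other phosphate carriers and regulators listed 23 were measured. At 7 dpf 1 rose and 10 fell, with a median of -0.30, and at 6 dpf 1 rose and 6 fell, with a median of -0.09 against 0.02 over all genes. Of all genes, 14.6% were called as higher and 14.2% as lower at 7 dpf, and 4.37% as higher and 6.32% as lower at 6 dpf. At 2 and 4 dpf 0 of these, and 0 of the marker lists, passed in edgeR, where 0.00757% and 0% of all genes were called. With so few calls, these zeros say nothing particular about the lists. At 2 dpf 13 of the 18 measured intestine markers were tested.

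Among the other carriers, the close relative slc34a2b (chromosome 23) had 48.6 ± 18.8 CPM in calcitriol larvae and 36.6 ± 7.30 CPM in vehicle larvae at 7 dpf. Its log2 fold changes of 0.45 ± 0.25 at 6 dpf (adjusted p = 0.299) and 0.42 ± 0.28 at 7 dpf (0.288) did not pass. Without calcitriol replicate 5 they were 0.60 (adjusted p = 0.0494) and 0.63 (0.007). Under the 22 alternatives slc34a2b passed in 4 at 6 dpf and in 3 at 7 dpf, with adjusted p of up to 0.561 and 0.534 in others. The partner of slc20a1b, slc20a1a, had 26.9 ± 4.54 CPM in calcitriol larvae and 35.4 ± 4.87 CPM in vehicle larvae at 7 dpf, at -0.39 ± 0.13 (adjusted p = 0.0473), and passed under 9 of 22 alternatives. It was lost without vehicle replicate 2, 3, 4 or 5 or calcitriol replicate 1, 3 or 4, with adjusted p of 0.0523 to 0.114.

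The mitochondrial phosphate carrier gene slc25a3a fell at 7 dpf to 15.4 ± 6.14 CPM in calcitriol larvae, against 36.4 ± 3.34 CPM in vehicle larvae, at -1.24 ± 0.22 (adjusted p = 0.00181). Its copy slc25a3b had 1147 ± 99.8 CPM in calcitriol larvae and 1204 ± 111.3 CPM in vehicle larvae, at -0.06 ± 0.09 (adjusted p = 0.631), and a positive value without scaling factors (0.11).

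Of the regulators, stc2, a stanniocalcin gene, was at -1.41 ± 0.15 at 7 dpf (adjusted p = 4.99e-05) and stc1l, another, at -1.35 ± 0.16 (0.000119). The scaffold genes pdzk1 and slc9a3r1, whose mammalian products anchor phosphate carriers in the membrane, were at -0.78 ± 0.09 (adjusted p = 0.00012) and -0.67 ± 0.15 (0.00588). The list also holds pth2, a parathyroid hormone family gene whose part in phosphate handling was not tested. It was at -1.67 ± 0.30 (adjusted p = 0.00203), with 1.13 ± 0.515 CPM in calcitriol larvae and 3.60 ± 0.898 CPM in vehicle larvae. The parathyroid hormone gene pth1a was the 1 member that rose, at 1.23 ± 0.28 (adjusted p = 0.00696), from low levels of 0.316 ± 0.0543 CPM in calcitriol larvae and 0.138 ± 0.0404 CPM in vehicle larvae.

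**Figure D5:**
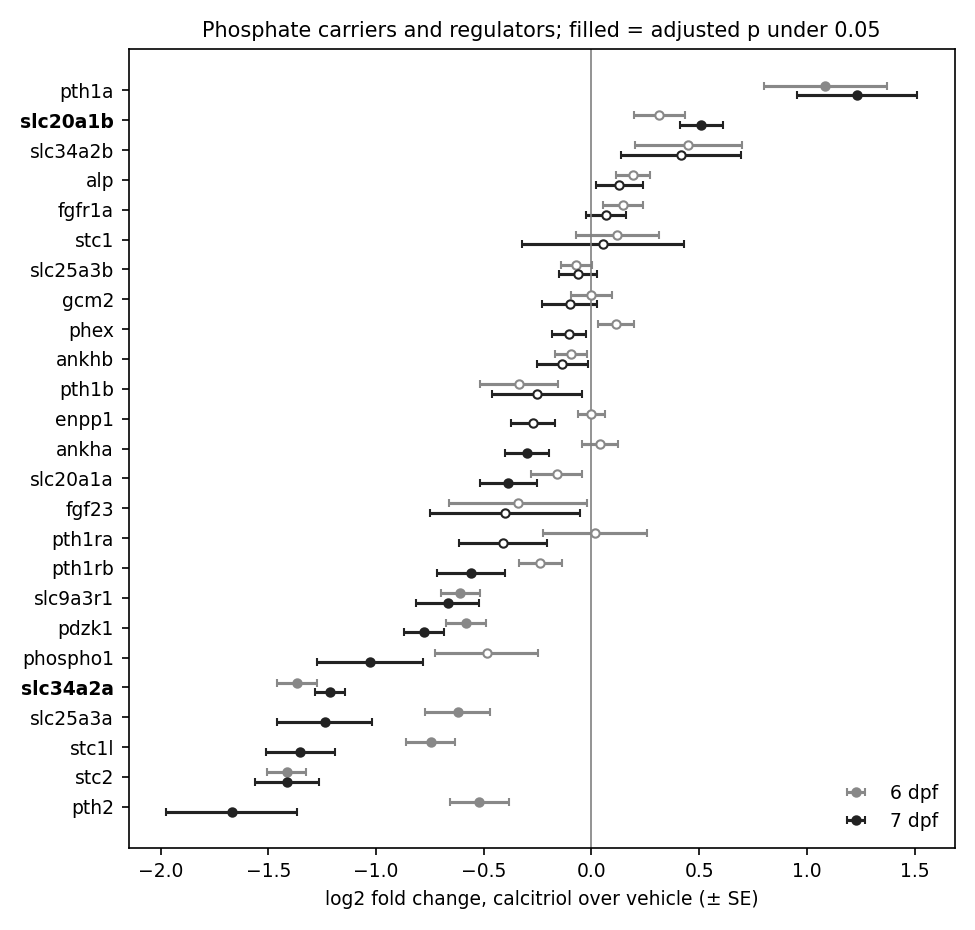
Log2 fold change of calcitriol over vehicle (horizontal axis, ± SE) at 6 dpf (grey) and 7 dpf (black) for the 23 measured phosphate carriers and regulators and, in bold, slc34a2a and slc20a1b; filled symbols had an adjusted p under 0.05. At 7 dpf slc20a1b (0.51) and pth1a (1.23) are the filled symbols to the right of 0.

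Of 20 bone and mineral markers 15 were measured, and some of these are also on the phosphate list. At 7 dpf 6 rose, 1 fell and 8 did not pass (median 0.13 against 0.01). Of all genes, 14.6% were called as higher and 14.2% as lower at that age. At 6 dpf 2 rose and 0 fell, where 4.37% were called as higher (median 0.11 against 0.02). The bone regulator gene runx2a was at 0.86 ± 0.18 (adjusted p = 0.00475) and mgp, an inhibitor of calcification, at 0.93 ± 0.25 (0.0159) at 7 dpf. Both had low levels there. For runx2a they were 1.53 ± 0.131 CPM in calcitriol larvae and 0.848 ± 0.236 CPM in vehicle larvae. For mgp they were 2.045 ± 0.848 CPM in calcitriol larvae and 1.07 ± 0.119 CPM in vehicle larvae. With limma voom mgp was at 0.46 at 7 dpf. At 6 dpf, where slc20a1b did not pass, mgp was at 1.48 ± 0.19 (adjusted p = 0.0006). The homeobox gene dlx5a was at 0.36 ± 0.10 (adjusted p = 0.0173), and lost the call without vehicle replicate 2 (0.0536) or 3 (0.0519) or calcitriol replicate 4 (0.0602). The part of these markers in the slc20a1b level was not tested.

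The genes whose log2 CPM followed each carrier most closely over the 40 libraries were ranked by Pearson's r among 7659 genes. For slc34a2a they included fep15 (0.99), cyp2n13 (0.99), cd36 (0.98) and xpnpep2 (0.98). For slc20a1b they were ifrd1 (0.90), atf3 (0.90), mycl1b (0.89), ndrg1l (0.88) and dtwd1 (0.86). The libraries share their ages, depth and treatment, and the low level at 2 dpf weighs heavily for slc34a2a.

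With the mean of each age removed, the closest to slc34a2a were ela3l (0.85), ela2 (0.82), ctrl (0.81), slc2a2 (0.81) and fep15 (0.78). The first 3 encode digestive proteases of the pancreas and slc2a2 a glucose carrier. The closest to slc20a1b were then slc7a3 (0.89), ccnl1 (0.87), hig1 (0.87), gbp (0.86) and relt (0.86), of which slc7a3 encodes an amino acid carrier. The carriers themselves had an r of 0.29 with each other, and of -0.33 with the mean of each age removed. Removing the mean of each age leaves the differences of treatment and depth in these values.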

How the data were processed

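The authors deposited whole-number counts per gene and per exon for 40 libraries, without normalization as far as the values show. The submitters' processing notes name CASAVA 1.4 and HTSeq 0.5.3p3; the aligner is not given in the sources used here. Per the labels' protocols the poly-A kit does not mark strand, and reads were 51 bases from both ends.

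Gene counts were analysed in R 4.3.3 with edgeR 4.0.16: filterByExpr, TMM factors, glmQLFit with robust estimation and glmQLFTest, in a separate fit of 10 libraries for each comparison, and 1 fit of 40 libraries for differences between ages. A stated difference is judged against the spread of 5 libraries per group. Chi-square divided by its degrees of freedom was 21.5 or more in each of 80 replicate pairs, so no pair agreed within sampling noise. Alternatives were other scaling factors and filters, DESeq2 1.42.0, limma 3.58.1 with voom, a fit of all libraries, replicate blocks, leaving out each library or the shallow ones, and sums over named exons. The procedure was tested on simulated data with independent libraries, which does not address libraries that deviate together.

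The exon table numbers the calcitriol libraries differently: its number 1 is replicate 5 of the gene table. By these numbers, calcitriol and vehicle libraries deviate together at 2 dpf (r of 0.25 to 0.62) and 4 dpf (0.36 to 0.64). At 6 dpf r was positive but lower in part, 0.08 to 0.50, with 4 of 5 pairs above 0.1. At 7 dpf it was 0.04 to 0.38, with 3 of 5 above 0.1. The main fits did not use these numbers. On the slc34a2aas exon at 4 dpf, numbers 2 and 3 had scaled levels of 107.4 and 119.8 in calcitriol larvae and 101.8 and 125.0 in vehicle larvae. Numbers 4 and 5 had 526.6 and 436.8 in calcitriol larvae and 426.4 and 408.4 in vehicle larvae. The numbers may thus mark sets of libraries instead of single pairs, which was not tested. By the numbers of the labels the libraries do not pair in this way, with r of -0.42 to 0.41 over all ages. Across neighbouring ages within a treatment, libraries of the same label number correlate at 0.18 to 0.81; this was computed after the blocked fits had been seen.

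Genes are named by rule: the carriers that were measured, up to 6 other members of the phosphate list by smallest p among those past the threshold at 6 or 7 dpf, 3 members of each marker list by smallest p at 7 dpf, and 5 genes by likeness with a mean log2 CPM of at least 2. Of the genes this rule takes, 1 is not reported here. Members, lists and rule were chosen with earlier results of these data known. With library size alone, the median gene had a log2 fold change of 0.14 (6 dpf) and 0.18 (7 dpf). The calls then split into 1735 higher and 609 lower at 6 dpf, against 590 and 854 with TMM, and 4130 and 1150 at 7 dpf, against 1962 and 1904.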

Additional observations from a re-analysis of the deposited data

Results flagged for a closer look

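In calcitriol larvae at 4 dpf the lowest library of slc20a1b had 183.0 CPM and stood apart from the other 4 by 0.783 of the group's range. In vehicle larvae of that age the lowest had 167.5 CPM, at 0.799 of the range, and both are above the critical value of 0.71 for 5 samples. Both are the shallow libraries. Of 16 checks, of 2 genes in 8 groups, these 2 were flagged, and chance flags about 1 in 20 independent checks. The checks of both genes share their libraries and are not independent.

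For slc34a2a the test of a differing response over all ages did not pass (adjusted p = 0.0643), and of 6 differences between pairs of ages 2 did. Its response at 6 dpf minus that at 2 dpf was -1.72 on the log2 scale, and at 7 dpf minus that at 2 dpf -1.56. The level at 2 dpf rests on 7 to 56 counts per library.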

How the results depend on the processing

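For the carriers, 22 tested results were recomputed under 460 alternatives, of which 409 kept the side of the threshold and, where compared, the direction. The response over ages was compared by side of the threshold alone. A result that did not pass either time counts as kept. For steps between ages the replicate block was counted under both numberings, though these give the same fit. The lower slc34a2a and higher slc20a1b at 7 dpf, and the lower slc34a2a at 6 dpf, passed under all 22 alternatives, at -1.39 to -1.04, 0.45 to 0.69 and -1.41 to -1.25. At 6 dpf slc20a1b passed without scaling factors (0.43), with limma voom (0.36), with the exon-table replicate block (0.30) and without the shallow libraries (0.38). With 1 library left out it ranged from 0.24 to 0.39 and passed in 1 of 10 fits. At 4 dpf slc34a2a passed with the exon-table replicate block (-0.67).

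Between ages, slc34a2a at 6 against 4 dpf in calcitriol larvae passed with DESeq2 (0.47), with 0.32 to 0.63 on leaving out a library. Vehicle 7 against 6 dpf was lost in the fit of all 40 libraries (-0.32) and on named exons (-0.38), with -0.33 to -0.24 on leaving out a library. For slc20a1b, calcitriol 6 against 4 dpf passed with the stricter filter (0.41), DESeq2 (0.39), limma voom (0.39), the fit of all libraries (0.40), either replicate block (0.40) and without the shallow libraries (0.38), with 0.29 to 0.50 on leaving out a library. Calcitriol 7 against 6 dpf passed with DESeq2 (0.38), limma voom (0.46), either block (0.39) and without the shallow libraries (0.37), with 0.29 to 0.46 on leaving out a library. Vehicle 7 against 6 dpf passed with limma voom (0.24) and either block (0.18). Within a treatment both numberings define the same blocks, so for these steps the blocks are not separate alternatives. Adjusted p of the response over ages passed for slc34a2a with DESeq2 (0.00873) and without the shallow libraries (0.00706), and for slc20a1b without scaling factors (0.0195), with the exon-table block (0.00734), without the shallow libraries (0.000371) and with limma voom (0.00259). These are 2 and 4 of 11 alternatives, and the highest adjusted p was 0.954 for slc34a2a and 0.75 for slc20a1b.

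Signs also turned, in each case at a value that did not pass. At 2 dpf slc34a2a was -0.43 with limma voom. At 2 dpf slc20a1b was 0.00531 without scaling factors, 0.0313 with limma voom and 0.0478 on named exons, and -0.0895 to 0.0111 on leaving out a library. At 4 against 2 dpf slc20a1b was 0.095 in vehicle without scaling factors, and in calcitriol -0.0396 with limma voom and -0.0238 to 0.13 on leaving out a library. At 6 against 4 dpf in vehicle it was -0.0109 without scaling factors. Without scaling factors slc25a3b was 0.0443 at 6 dpf and 0.11 at 7 dpf, and slc34a2aas at 7 dpf was 0.0778 on named exons, though it passed as lower under 6 of 22 alternatives. The cause was not tested. Leave-one-out was not run for the response over ages.

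Genes called at 6 dpf ranged from 543 on named exons to 4304 with limma voom, against 1444, and at 7 dpf from 1588 to 8266 by the same settings, against 3866. Calls were lost for slc13a3 (adjusted p = 0.142) and cdh17 (0.0513) at 7 dpf on named exons, for cdh17 without scaling factors (0.0547), for mgp with the label replicate block (0.0556), and in the fit of all 40 libraries for runx2a at 7 dpf (0.105) and slc34a2aas at 6 dpf (0.0692). Counts at 2 dpf limit any statement on slc34a2a there.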
